A study of Mus musculus with 9 samples.

Results

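The genes described here are the nuclear genes for mitochondrial complex I, the NADH:ubiquinone oxidoreductase: 35 structural subunits and 12 assembly factors, 47 genes taken by symbol from 48795 gene IDs. RNA-seq compared mouse splenic follicular B cells, selected on CD23, without and with the transcription factor gene Yy1. All animals were C57BL/6 with both Yy1 alleles flanked by loxP sites (yy1 f/f in the labels), so the control cells carried the floxed gene too. The 3 tatcre libraries came from cells given TAT-CRE, a Cre recombinase that enters cells and was applied to the isolated cells, and the 3 mock libraries from cells that were mock treated. LPS and IL-4, a pair of B cell activators, were present in both cultures. The labels disagree on the culture: the series text has 72 hours in 10% serum, and the sample texts have 48 hours in 20% serum. The sample texts also name TAT-CRE for mock cells, and the titles were followed here. Exposure to TAT-CRE and loss of Yy1 coincide in this design and cannot be told apart. The series describes 3 spleens divided over the treatments, but no label ties a library to a mouse. Each p-value therefore reflects only how much libraries of a group varied, which may be technical.

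Complex I takes electrons from NADH, passes them along a chain of iron-sulphur clusters to ubiquinone, and pumps protons across the inner mitochondrial membrane. It is built from modules: an N module that oxidizes NADH and a Q module that reduces ubiquinone form the arm in the matrix, and modules named after the mitochondrially encoded subunits ND1, ND2, ND4 and ND5 form the arm in the membrane. Assembly factors help to put the modules together and are not part of the finished enzyme. Resting B cells raise their respiration when they are activated.

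Libraries held 22729187 to 28230727 counts. Yy1 went from 100.3, 111.8 and 108.3 CPM in the mock libraries to 0.984, 1.5 and 2.0 CPM in the tatcre libraries, where CPM puts each count on a common library size, scaled by the trimmed mean of M-values (TMM). The 8 B cell marker genes summed to 8048 to 8369 CPM in mock and 6395 to 7144 CPM in tatcre libraries, and 4 of the 8 fell. Plasma cell genes summed to 352 to 408 and 307 to 358 CPM and dendritic cell genes, mainly Flt3, to 119.6 to 134 and 106 to 113 CPM. The 5 stromal and endothelial genes, mainly Pecam1, summed to 39.1 to 49.3 and 36.6 to 40.6 CPM. Pecam1 fell, but Col1a1 rose from 0.418 ± 0.317 to 1.89 ± 0.608 CPM (SD, n = 3; edgeR adjusted p = 0.0178). Cdh5, Kdr and Col1a2, not called, had log2 fold changes of 1.10, 0.51 and 0.14, with Col1a2 at 0.553 ± 0.274 and 0.614 ± 0.0778 CPM. The lists for NK cells, neutrophils, red cells and platelets stayed at or under 1.123 CPM. The T cell list of 7 genes summed to 14.9 to 21.5 CPM in mock and 9.5 to 13.2 CPM in tatcre libraries. Nearly all of it was Lck, which fell from 17.0 ± 3.15 to 10.3 ± 1.98 CPM (SD, n = 3; edgeR adjusted p = 0.00952). Cd3d, Cd3g, Cd4 and Cd8a were each at or under 0.148 CPM. Cd3e, too low to be tested, had at most 0.501 CPM, with every tatcre value above every mock value. The 6 macrophage genes summed to 22.5 to 28.2 and 12.6 to 15.8 CPM, most of it Cd68. Cd68 fell (log2 fold change -1.02, edgeR adjusted p = 0.000327). Csf1r, not tested, went the other way, from 0.239 ± 0.175 to 0.975 ± 0.532 CPM (SD, n = 3), with overlapping groups. Itgam, not called, averaged 0.599 CPM in mock and 0.629 CPM in tatcre libraries, and Adgre1, not tested, 0.129 and 0.109 CPM. Lyz2 had at most 0.0410 CPM and Cd14 had 0 counts. The part of these marker shifts in the results was not tested. In bulk RNA, fewer cells of a type and less RNA per cell cannot be told apart. The 7 complex I genes of the mitochondrial genome, mt-Nd1 to mt-Nd6 with mt-Nd4l, are listed at 0 throughout, which leaves the core of the membrane arm without a value.

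Single complex I genes changed in both directions in tatcre cells, while the summed level of the subunits moved little. Of the 47 genes 9 fell, 6 rose and 32 were not called (edgeR quasi-likelihood test, adjusted p threshold 0.05). Falls made up 19.1% and rises 12.8% of these genes, beside 16.3% and 10.8% of all 15546 tested genes, so the number of changed genes was near the background. Over all genes 60.2% of the calls were falls, a share of 48.5% with upper-quartile factors and 42.0% with library size alone. Falls spanned 1.23- to 4.82-fold with a median of 1.52-fold, whereas rises spanned only 1.18- to 1.36-fold. The median log2 fold change of the 47 genes was -0.07, beside 0.02 for all tested genes. Among the 7718 tested genes within the members' 10th to 90th percentile of mean log2 CPM, the median was -0.04, with 21.1% lower and 13.9% higher, so the members' shares lay near those of genes at like levels. Summed over the 35 subunits, the level was 1952, 2018 and 1937 CPM in the mock libraries and 1909.9, 1788 and 1861 CPM in the tatcre libraries. These TMM-scaled sums did not overlap between the groups but lay close together. As a share of all counts in a library, without TMM, the subunits made up 0.1932%, 0.1929% and 0.1831% in mock and 0.1977%, 0.1884% and 0.1897% in tatcre libraries, and there the groups overlapped, with tatcre 1 highest. For 16 genes every tatcre value was below every mock value, and for 10 every tatcre value was above, where 23.3% and 20.6% of all tested genes did so. Of the 9 falls 8 were called in each of 14 alternative fits, and of the 6 rises 1 was. Leaving out any 1 of the 6 libraries gave 8 to 11 falls and 1 to 3 rises. Over all tested genes those fits called 12.2% to 14.9% lower and 6.19% to 10.5% higher.

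**Figure D1:**
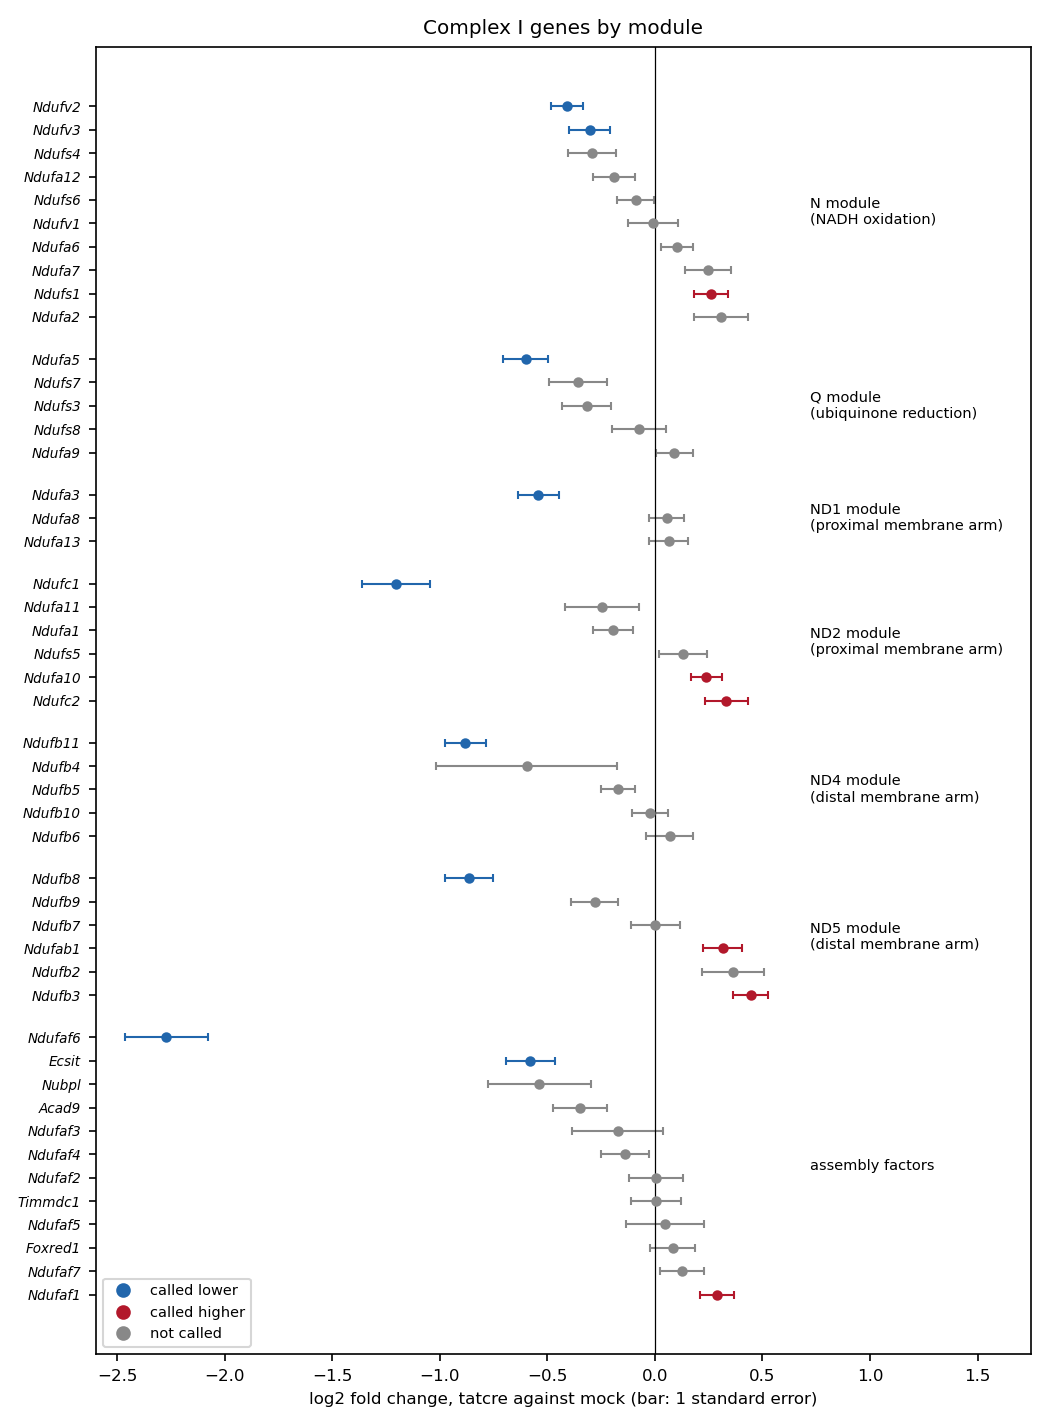
Log2 fold change of each complex I gene in tatcre against mock cells (x axis; points are fitted values, bars 1 standard error), grouped by module on the y axis. Each group holds 1 or 2 blue points (called lower), red points (called higher) reach 0.44 at Ndufb3, and Ndufaf6 lies farthest out at -2.27.

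The deepest fall was that of an assembly factor. Ndufaf6 (ENSMUSG00000050323, chromosome 4, 11048991 to 11076237 in GRCm38) encodes a protein needed early in assembly, for the part of the membrane arm that holds ND1. It stood at 9.52, 9.45 and 9.37 CPM in the mock libraries and at 1.60, 2.51 and 1.76 CPM in the tatcre libraries, or 252, 255 and 220 counts against 39, 60 and 44. The mock libraries were nearly equal and every tatcre library was far below them. The fall was 4.82-fold (log2 fold change -2.27, SE 0.19, edgeR adjusted p = 1.94e-05).

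Among subunits the deepest falls were in 3 accessory subunits of the membrane arm, small proteins that surround the catalytic core. Ndufc1 (ENSMUSG00000037152, chromosome 3, 51405479 to 51408955), of the ND2 module, had 10.7, 9.0 and 8.77 CPM in mock and 4.43, 4.30 and 3.61 CPM in tatcre libraries, a 2.30-fold fall (log2 fold change -1.20, SE 0.16, edgeR adjusted p = 0.00031). Ndufb11 (ENSMUSG00000031059, chromosome X, 20615326 to 20617619), of the ND4 module, went from 52.6, 56.7 and 57.7 CPM to 32.1, 26.9 and 31.5 CPM, a 1.84-fold fall (log2 fold change -0.88, SE 0.10, edgeR adjusted p = 8.86e-05). Ndufb8 (ENSMUSG00000025204, chromosome 19, 44548571 to 44555442), of the ND5 module and often used as a marker of assembled complex I, went from 19.6, 19.5 and 17.7 CPM to 10.8, 10.6 and 9.74 CPM, a 1.82-fold fall (log2 fold change -0.87, SE 0.11, edgeR adjusted p = 0.000265). In all 3 genes the groups were well apart, with the highest tatcre library far below the lowest mock library.

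Since Yy1 encodes a DNA-binding factor, the promoters of these genes were searched for its binding word, GCCATNTT on either strand, in RefSeq sequences of GRCm38.p6 that run from 250 bases before to 50 bases after each start. A promoter was at hand for 42 of the 47 genes; Ndufaf6, Acad9, Ndufa2, Ndufb9 and Ndufs1 had none in the table. The word was found in 13 of the 42 (31.0%), beside 10.2% of the 10007 tested genes with a promoter and 6.96% of all 27025 genes with one. Of the 8 complex I genes called lower that had a promoter, 4 held it, as did none of the 5 called higher and 9 of the 29 not called. Among the 10007 tested genes with a promoter it was in 16.9% of those called lower, 9.84% of those called higher and 8.42% of those not called. A match is a description of letters and does not show binding.

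**Figure D2:**
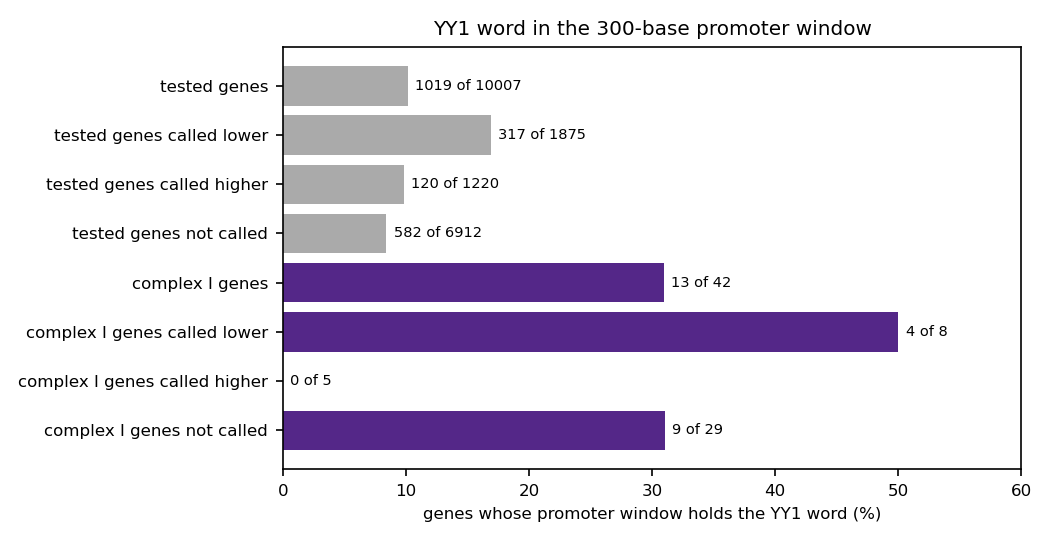
Percentage of genes whose promoter window holds GCCATNTT on either strand (x axis), for tested genes (grey bars) and complex I genes (purple bars), split by call. Only genes with a promoter are counted, and labels give the numbers. The bar of complex I genes called lower reaches 50% with 4 of 8 genes, and that of tested genes called lower reaches 16.9%.

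The matches fell into 2 kinds, and 30 bases around several of them are shown to compare position and spelling, 5′ to 3′ along the gene, with the word in capitals. In 7 subunit genes the word lay 22 to 38 bases after the start and always with 1 spelling, AAGATGGC read along the gene. Distances are from the start used for the promoter sequence, which can lie inside the gene limits printed here, as for Ndufa3. The first 3 below are genes that fell, and the other 4 were not called.
Ndufc1, chr3:51408915-51408944, minus strand: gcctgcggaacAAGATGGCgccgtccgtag
Ndufa3, chr7:3617384-3617413, plus strand: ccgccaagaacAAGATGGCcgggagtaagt
Ndufb8, chr19:44555393-44555422, minus strand: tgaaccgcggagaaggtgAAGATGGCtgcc
Ndufs7, chr10:80249462-80249491, plus strand: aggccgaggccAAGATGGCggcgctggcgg
Ndufs4, chr13:114388045-114388074, minus strand: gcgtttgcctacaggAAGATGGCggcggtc
Ndufs6, chr13:73328433-73328462, minus strand: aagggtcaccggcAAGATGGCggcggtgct
Ndufa9, chr6:126849097-126849126, minus strand: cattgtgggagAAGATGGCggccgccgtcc
The 4th fallen gene with a match, Ndufb11, held it farther out, 211 bases before the start site and with another spelling.
Ndufb11, chrX:20617812-20617841, minus strand: gtcaccaacacAAAATGGCgacgagaagag
The spelling and the position were singled out after the matches had been seen. Over all promoters AAGATGGC lay in the first 50 bases after the start in 1.04% of genes. Of the 245 tested genes among them 39.2% were called lower and 10.6% higher, with a median log2 fold change of -0.20, and the 7 complex I genes had a median of -0.36 with 3 lower and none higher. Genes with GCCATNTT only in the 250 bases before the start were called lower in 24.3% and higher in 12.6% of 506 tested cases. The 6 complex I genes of that kind had 1 lower. Beside these shares, 1875 of all 10007 tested genes with a promoter were called lower and 1220 higher. The words of 2 other factors of respiratory gene promoters were searched in the same way. The NRF1 consensus was in 21.4% of complex I promoters and 11.7% of those of tested genes, with 1 of the 8 called lower. The ETS family word CCGGAAG was in 16.7% and 20.4%, also with 1 of the 8.

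In the N module, which binds NADH and starts the electron chain, 2 of 10 genes fell, 1 rose and 7 were not called. Ndufv2, a subunit with an iron-sulphur cluster, had 256, 256 and 265 CPM in mock and 206, 194 and 186 CPM in tatcre libraries and fell 1.33-fold (log2 fold change -0.41, SE 0.07, edgeR adjusted p = 0.00202). It overlaps the gene Ankrd12 by 10 bases, and Ankrd12 did not pass (log2 fold change -0.19, edgeR adjusted p = 0.248). Ndufv3, an accessory subunit beside it, had 170.0, 142 and 137 CPM in mock and 127, 114 and 124 CPM in tatcre libraries (log2 fold change -0.30, edgeR adjusted p = 0.038). Its mock libraries were spread out, with mock 1 highest, and the call was lost when mock 1, mock 2, tatcre 1, tatcre 2 or tatcre 3 was left out (edgeR adjusted p from 0.0593 to 0.112).

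Ndufs1, which carries several of the iron-sulphur clusters, went the other way. It had 109, 116 and 118 CPM in mock and 133, 146 and 132 CPM in tatcre libraries, a 1.20-fold rise (log2 fold change 0.26, SE 0.08, edgeR adjusted p = 0.0307). The groups did not overlap, but the call was lost whichever of the 6 libraries was left out (edgeR adjusted p from 0.0562 to 0.0961). Ndufs1 lies across a long noncoding RNA gene, Ino80dos, which averaged 2.99 CPM without and 4.22 CPM with TAT-CRE (edgeR adjusted p = 0.128). The flavin-binding subunit Ndufv1, the entry point of the electrons, averaged 39.3 ± 4.65 CPM against 39.0 ± 5.06 CPM (mock against tatcre, SD, n = 3; log2 fold change -0.01, edgeR adjusted p = 0.961). Of the others, Ndufa6 had the highest CPM, 124 ± 2.36 against 133 ± 5.26, and Ndufa2 the largest log2 fold change, 0.31, with 14.9 CPM against 18.5 CPM (edgeR adjusted p = 0.0897). Ndufs4, Ndufs6, Ndufa7 and Ndufa12 lay at -0.29 to 0.25 on the log2 scale. Ndufs6 has a near copy, Ndufs6b, listed with 1171 to 1565 counts a library, so its own value is uncertain. Ndufa2 and Ndufa7 were called higher with upper-quartile factors or library size alone in place of TMM, and Ndufa6 with library size alone, which also moved the median of all tested genes from 0.02 to 0.13.

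In the Q module, where electrons reach ubiquinone, 1 of 5 genes fell and 4 were not called. Ndufa5, an accessory subunit of this module, had 40.0, 49.6 and 44.2 CPM in mock and 30.01, 26.9 and 31.3 CPM in tatcre libraries, a 1.52-fold fall (log2 fold change -0.60, SE 0.11, edgeR adjusted p = 0.00182). All tatcre libraries lay below the lowest mock library. Among those not called, Ndufs7, which holds the last cluster of the chain, had the largest difference, 24.5 ± 3.24 CPM against 19.1 ± 2.62 CPM (mock against tatcre, SD, n = 3; log2 fold change -0.36, edgeR adjusted p = 0.0687), and was called lower without mock 3 (0.0259) or tatcre 1 (0.0409). Ndufs3, a core subunit, was close to the threshold (log2 fold change -0.32, edgeR adjusted p = 0.0642) and was called lower without tatcre 3 (0.0375). Ndufs8 and Ndufa9, the most abundant of the 5 by counts at 69.3 ± 1.1 and 73.7 ± 6.66 CPM, lay at -0.07 and 0.09 on the log2 scale.

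In the ND1 module, which joins the arms, Ndufa3 fell and Ndufa8 and Ndufa13 were not called. Ndufa3 (ENSMUSG00000035674, chromosome 7, 3617347 to 3620165) had 56.1, 57.5 and 50.3 CPM in mock and 41.1, 35.0 and 36.4 CPM in tatcre libraries, a 1.46-fold fall (log2 fold change -0.54, SE 0.09, edgeR adjusted p = 0.00183). Ndufa8 (44.3 CPM against 46.0 CPM, log2 fold change 0.05) and Ndufa13 (23.8 CPM against 24.9 CPM, log2 fold change 0.06) had overlapping groups.

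The ND2 module held calls in both directions. Beside the fall of Ndufc1, its partner Ndufc2 had 72.3, 72.0 and 80.1 CPM in mock and 96.0, 104 and 82.6 CPM in tatcre libraries, a 1.26-fold rise (log2 fold change 0.33, SE 0.10, edgeR adjusted p = 0.0284). The lowest tatcre library was barely above the highest mock library, and the call was lost without mock 1, mock 2, tatcre 1 or tatcre 2 (edgeR adjusted p from 0.0764 to 0.12). Ndufa10, an accessory subunit related to nucleoside kinases, had 117, 123 and 121 CPM in mock and 147, 138 and 141 CPM in tatcre libraries (log2 fold change 0.24, SE 0.07, edgeR adjusted p = 0.033). That call was lost on leaving out any library other than tatcre 2 (edgeR adjusted p from 0.0693 to 0.175). Ndufa1, the most abundant of the module by counts at 147 ± 6.69 and 128 ± 14.4 CPM (SD, n = 3), and Ndufa11 and Ndufs5 were not called, at -0.25 to 0.13 on the log2 scale. The lowest of these, Ndufa11, had 16.9 CPM against 14.3 CPM and has a near copy, Ndufa11b, listed with 50 to 85 counts a library.

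**Figure D3:**
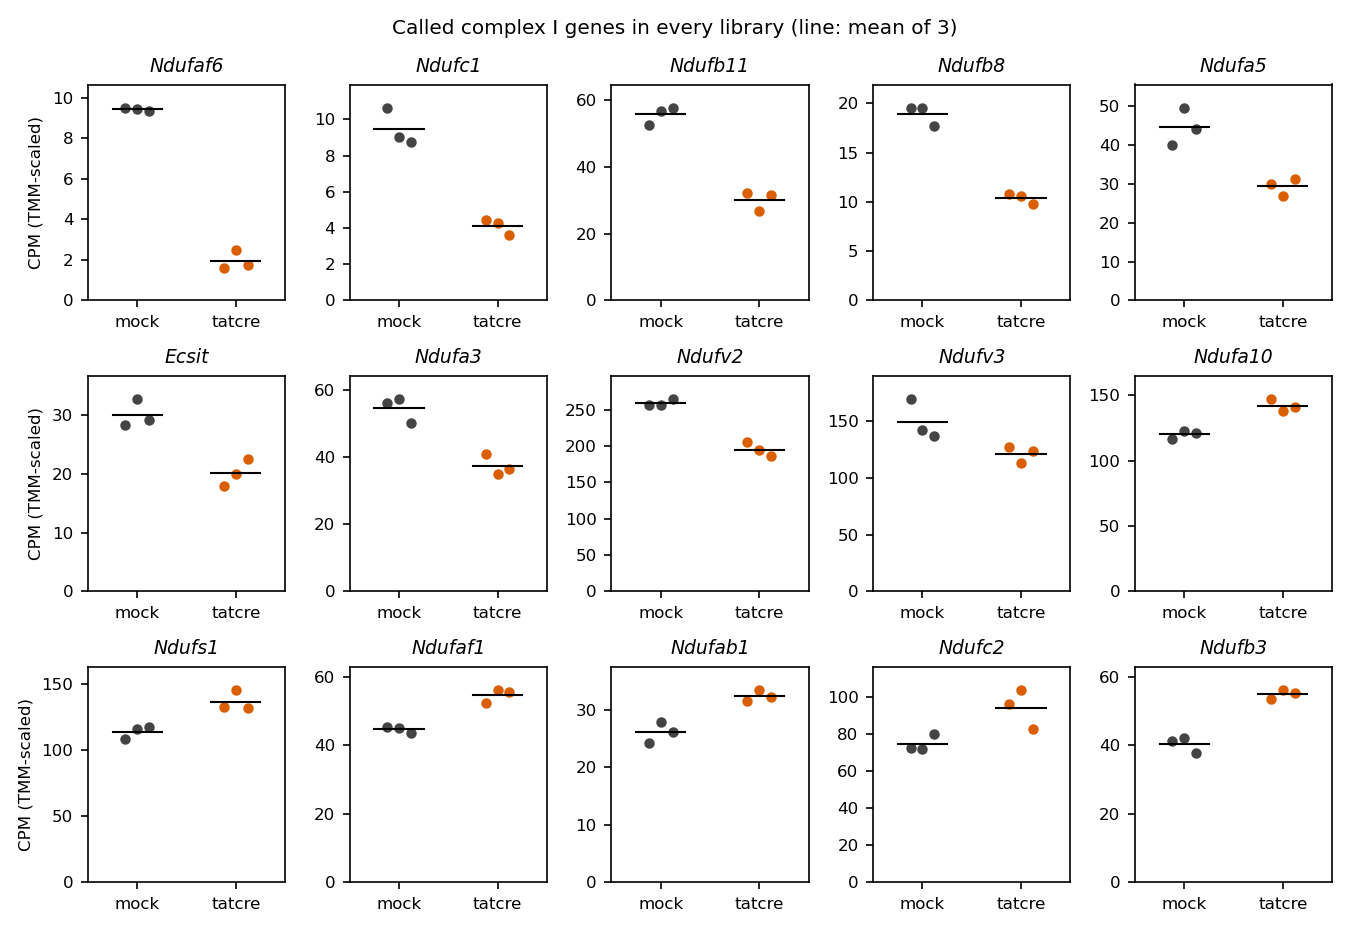
Level of each called complex I gene in every library (y axis, TMM-scaled CPM from 0; points are libraries, lines the means of 3), mock beside tatcre. In the 9 panels of fallen genes, from Ndufaf6 to Ndufv3, all tatcre points lie below all mock points, and in the 6 panels of raised genes all lie above.

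The distal membrane arm, whose ND4 and ND5 modules pump protons, combined large falls with small rises. In the ND4 module Ndufb11 fell and the other 4 genes were not called: Ndufb10, the most abundant by counts, stood at 79.3 ± 4.14 and 78.2 ± 4.57 CPM (SD, n = 3), Ndufb5 at a log2 fold change of -0.17 and Ndufb6 at 0.07. Ndufb4 had only 43, 26 and 43 counts in mock and 26, 27 and 18 in tatcre libraries. Its log2 fold change of -0.60 was small beside its SE of 0.42 (edgeR adjusted p = 0.316), and it has copies in the genome, such as Ndufb4c with 0 to 8 counts a library.

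In the ND5 module Ndufb8 fell, Ndufb3 and Ndufab1 rose and 3 genes were not called. Ndufb3, an accessory membrane subunit, had 41.3, 42.2 and 37.7 CPM in mock and 53.5, 56.2 and 55.1 CPM in tatcre libraries, a 1.36-fold rise (log2 fold change 0.44, SE 0.08, edgeR adjusted p = 0.00267). Its groups stood well apart, and it was the 1 rise called in each alternative. Ndufab1, the mitochondrial acyl carrier protein, which also serves lipoic acid and iron-sulphur cluster synthesis, had 24.3, 27.8 and 26.1 CPM in mock and 31.6, 33.5 and 32.2 CPM in tatcre libraries (log2 fold change 0.32, SE 0.09, edgeR adjusted p = 0.0266). Its call was lost on leaving out any library other than mock 2 (edgeR adjusted p from 0.0539 to 0.0918), and a pseudogene copy, Ndufab1-ps, is listed with 171 to 255 counts a library. Of the rest, Ndufb2 had 7.67 CPM against 9.88 CPM (log2 fold change 0.36, edgeR adjusted p = 0.0857) and all tatcre values above, and was called higher with upper-quartile factors (0.0493) or library size alone (0.0362). Ndufb9, the most abundant by counts, had 83.6 ± 6.79 CPM against 68.9 ± 9.04 CPM (log2 fold change -0.28, edgeR adjusted p = 0.0774) and all tatcre values below, and Ndufb7 had a log2 fold change of 0.00. Ndufb9 was called lower without mock 3 or tatcre 3 (edgeR adjusted p = 0.04997 and 0.0496).

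Split by arm, 3 of 15 matrix arm genes fell and 1 rose, and 4 of 20 membrane arm genes fell and 4 rose. The median log2 fold change was -0.09 in the matrix arm and -0.01 in the membrane arm. Subunits and assembly factors had like shares: 7 of 35 subunits fell (20.0%) and 5 rose (14.3%), and 2 of 12 assembly factors fell (16.7%) and 1 rose (8.33%), with medians of -0.07 for both. Each of the 6 subunit modules thus held at least 1 fallen gene, and none had more than 2.

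Among assembly factors, Ecsit, Ndufaf1 and Acad9 belong to the MCIA complex, which builds the ND2 part of the membrane arm. Of these 3 genes 1 fell, 1 rose and 1 was not called, and differences between them were not tested. Ecsit, an MCIA member also known as an adaptor in Toll-like receptor signalling, had 28.3, 32.8 and 29.1 CPM in mock and 17.9, 19.9 and 22.6 CPM in tatcre libraries, a 1.49-fold fall (log2 fold change -0.58, SE 0.11, edgeR adjusted p = 0.00334). It lies across the noncoding gene Gm16845, which averaged 0.448 CPM without and 0.668 CPM with TAT-CRE (edgeR adjusted p = 0.462). Ndufaf1, its direct partner, had 45.4, 45.1 and 43.6 CPM in mock and 52.4, 56.2 and 55.5 CPM in tatcre libraries, a 1.22-fold rise (log2 fold change 0.29, SE 0.08, edgeR adjusted p = 0.0196), a call lost without mock 2, mock 3, tatcre 1 or tatcre 3 (edgeR adjusted p from 0.0534 to 0.085). Acad9, an acyl-CoA dehydrogenase relative in the same complex, had 24.1 ± 3.20 CPM against 18.9 ± 2.21 CPM (mock against tatcre, SD, n = 3; log2 fold change -0.35, edgeR adjusted p = 0.0645). It was called lower without mock 1 (0.0446) or tatcre 3 (0.0331).

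The other 8 assembly factors were not called. Nubpl, which delivers iron-sulphur clusters to the enzyme, had the largest difference among them, 3.45 ± 0.55 CPM against 2.38 ± 0.208 CPM (mock against tatcre, SD, n = 3; log2 fold change -0.54, SE 0.24, edgeR adjusted p = 0.121). Ndufaf2, a late factor and the most abundant of the 12 by counts, stood at 55.0 ± 8.06 and 55.2 ± 7.23 CPM. Timmdc1, a membrane arm factor, was at 13.8 ± 1.27 and 13.8 ± 0.625 CPM. Ndufaf3 and Ndufaf4, which act on the Q module, the methyltransferase family members Ndufaf5 and Ndufaf7, and Foxred1, a factor of later steps, had log2 fold changes from -0.17 to 0.13.

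Beyond the 47 genes, 13 further complex I genes were listed, of which Ndufb1 and Coa1 were not analysed here; of the 11 tested 4 fell, none rose and 7 were not called, with a median log2 fold change of -0.22. Falls were 36.4% of these genes, beside 16.3% of all tested genes. Dmac2, an assembly factor of the distal membrane arm, had 39.0, 37.3 and 34.0 CPM in mock and 17.1, 14.1 and 16.4 CPM in tatcre libraries, a 2.32-fold fall (log2 fold change -1.21, SE 0.11, edgeR adjusted p = 2.37e-05). Tmem126b, a further MCIA member, had 20.1, 21.3 and 23.1 CPM in mock and 13.3, 14.1 and 11.1 CPM in tatcre libraries, a 1.68-fold fall (log2 fold change -0.75, SE 0.12, edgeR adjusted p = 0.00113). Tmem126a, its paralog, which acts on the ND4 part, fell 1.33-fold, and Tmem242 fell 1.35-fold. Tmem186, also of MCIA, had a log2 fold change of 0.11 (not called). The 5 genes named here as MCIA members thus held 2 falls, 1 rise and 2 genes without a call.

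Complex I needs iron-sulphur clusters. Of 15 genes that make them 3 fell, 1 rose (Ndufab1, counted above) and 11 were not called, with a median log2 fold change of -0.19. Falls were 20.0% and rises 6.67% of this list, near the 16.3% and 10.8% of all tested genes. Nfu1, a late carrier of clusters, went from 47.8 ± 2.06 to 33.6 ± 2.33 CPM (SD, n = 3; log2 fold change -0.51, edgeR adjusted p = 0.00183). Lyrm4, a partner of the cysteine desulphurase, went from 16.1 ± 0.853 to 11.5 ± 0.574 CPM (log2 fold change -0.48, edgeR adjusted p = 0.0086). Isca2, also a late-acting carrier, had a log2 fold change of -0.30 (edgeR adjusted p = 0.0254), a call lost without mock 1, mock 3, tatcre 1 or tatcre 3 (edgeR adjusted p from 0.0558 to 0.0744), with upper-quartile factors (0.0727), library size alone (0.122) or the replicate block (0.0631). The scaffold gene Iscu and the desulphurase gene Nfs1 were not called, at 0.11 and -0.19 on the log2 scale.

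Several complex I genes start beside a gene on the other strand, which places 2 promoters in 1 stretch of DNA. Within 1000 bases 14 of the 47 genes had such a neighbour, and 11 neighbours were tested. Of these 5 were called lower and 1 higher, where 16.3% and 10.8% of all tested genes were. In 2 pairs both genes were called and went the same way. Rbm10, an RNA-binding splicing regulator whose start lies 116 bases from that of Ndufb11 and whose gene overlaps it by 263 bases, fell from 78.6 ± 4.72 to 52.0 ± 7.84 CPM (SD, n = 3; log2 fold change -0.59, edgeR adjusted p = 0.00272). Fam126b, 64 bases from Ndufb3, rose from 6.84 ± 2.02 to 13.2 ± 4.34 CPM (log2 fold change 0.95, edgeR adjusted p = 0.0154), a call lost without mock 1 or mock 2 (edgeR adjusted p = 0.0524 and 0.0804).

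In 4 pairs the neighbour fell while the complex I gene was not called. The widest gap was at Ndufa1, whose neighbour Rnf113a1, a spliceosome gene starting 16 bases from it, went from 17.0 ± 0.217 to 4.77 ± 0.932 CPM (SD, n = 3; log2 fold change -1.83, SE 0.15, edgeR adjusted p = 1.54e-05) beside -0.19 for Ndufa1. Vmac, beside Ndufa11, had a log2 fold change of -0.95 (edgeR adjusted p = 0.0364; lost without mock 1, mock 2, tatcre 1 or tatcre 2, 0.0796 to 0.147, with library size alone, 0.0562, or the replicate block, 0.0723). Mrpl47, beside Ndufb5, had -0.30 (edgeR adjusted p = 0.0227; lost without mock 2 or tatcre 3, 0.067 to 0.0821, with upper-quartile factors, 0.058, library size alone, 0.0984, or the replicate block, 0.0617). Rps28, 10 bases from Ndufa7, had -0.84 (edgeR adjusted p = 0.0131; 0.07 without mock 2) beside 0.25 for Ndufa7, but ribosomal protein genes have many near copies and its count is uncertain. The difference within a pair was not tested. In the other 5 pairs neither gene was called.

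**Figure D4:**
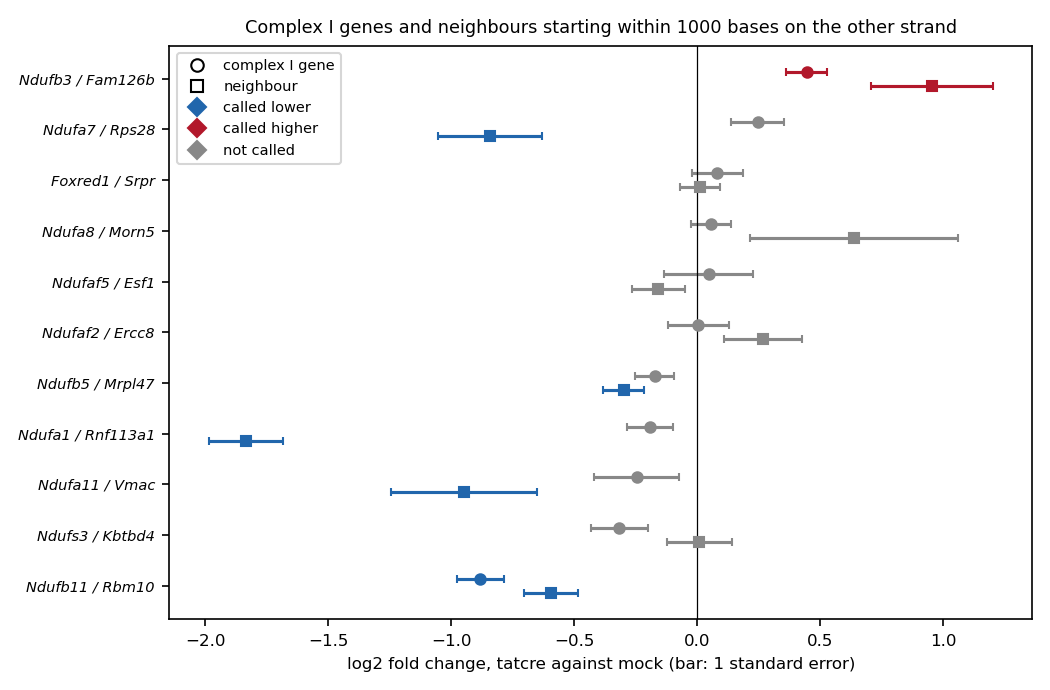
Log2 fold change in tatcre against mock cells (x axis, bars 1 standard error) of 11 complex I genes (circles) and of the tested neighbour that starts within 1000 bases on the other strand (squares), 1 pair a row. Ndufb11 and Rbm10 both lie left of 0 and Ndufb3 and Fam126b both right of it, while Rnf113a1 lies at -1.83 beside Ndufa1 at -0.19.

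Ndufaf6, Ndufc1, Ndufb11, Ndufb8, Ndufa5, Ecsit, Ndufa3 and Ndufv2 were called lower and Ndufb3 higher in each of the 14 alternatives, and Ndufv3, Ndufa10, Ndufs1, Ndufaf1, Ndufab1 and Ndufc2 were each lost in 5 to 8 of them. None of these 15 genes changed direction in any alternative. Which calls were lost depended on the kind of fit: with upper-quartile factors or library size alone only the fall of Ndufv3 was lost, all 6 rises were called and 3 or 4 further genes were called higher. Those fits called 14.3% and 16.8% of all tested genes higher, beside 10.8% as reported. In the fits without 1 library that lost its call, the log2 fold change of Ndufs1 was 0.21 to 0.28. In a principal component analysis the first component spread the mock libraries over -9.8, -36.4 and -79, with the tatcre libraries at 40.2, 56 and 29. Without mock 3, the farthest out, 13 of the 47 genes were called, 11 of them among the 15, and Ndufs7 and Ndufb9 were added. That fit called 14.1% of all tested genes lower and 8.13% higher.

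**Figure D5:**
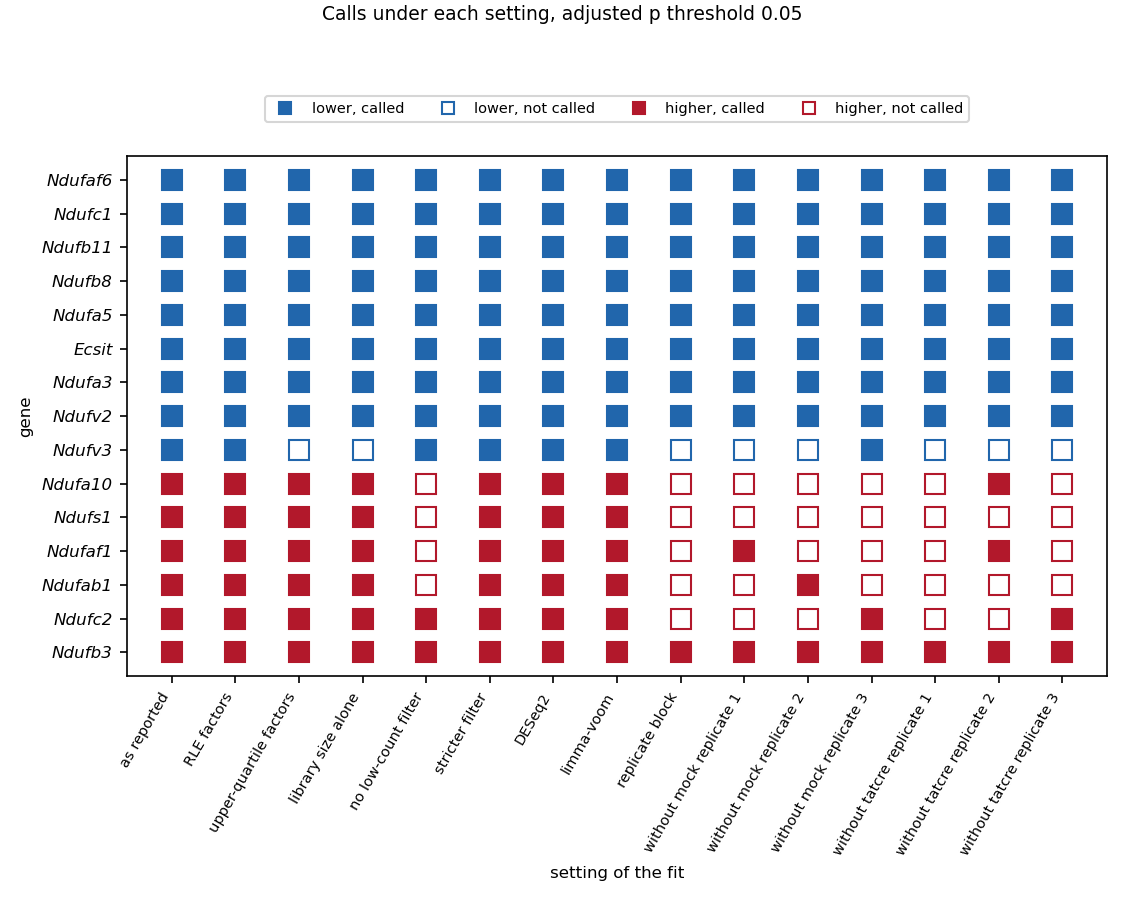
Calls of the 15 complex I genes (y axis) as reported and in each of 14 alternative fits (x axis); filled squares mark adjusted p at or under 0.05, open squares above it, blue lower and red higher. The top 8 rows and the bottom row are filled throughout, and open squares gather in the rows of Ndufv3 and of the smaller rises.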

How the data were processed

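RNA-seq was measured in 3 mock and 3 tatcre libraries. The authors deposited raw counts per gene, whole numbers that are not normalized. Reads had been trimmed, aligned and counted with HTSeq, TopHat2, SAMtools and Trimmomatic on mm10, per the submitters' processing notes. Their versions, the annotation and the strand setting were not stated in the sources used here, so reads of overlapping or near-identical genes may be counted elsewhere than the symbol implies. Groups and replicate numbers came from the titles. The filter filterByExpr, with a minimum count of 10 and a total of 15, kept 15546 of 48795 genes, among them all 47 members. The main test was the quasi-likelihood test of edgeR 4.0.16 (in R 4.3.3), tatcre against mock, with TMM scaling, Benjamini-Hochberg adjustment over all tested genes and a threshold of 0.05; "called" means past it, and "fell" or "rose" mean called. The SE is the size of the log2 fold change divided by the root of the F statistic. The test was checked on simulated data. Where no read was counted, 3 counts remain possible, which is 0.111 to 0.128 CPM by library. Alternatives used RLE, upper-quartile or no scaling factors, no or a stricter filter (CPM of 1 in 3 libraries), DESeq2 1.42.0, limma-voom (limma 3.58.1), a replicate block, and each library left out. Named with values were all called members and, of the others, the one of highest CPM and the one of largest change in each module; the AAGATGGC spelling was chosen after its values were seen. Members and lists were chosen with earlier results of these data known, so they get no set test. Gene positions come from RefSeq (GRCm38). The 3 deposited YY1 peak lists were not used: peaks on 2 to 7 chromosomes a list lie past the last gene of that assembly, so their build is not settled. Levels of different genes were not compared per length. The values of 1 further listed gene are not reported here.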

Additional observations from a re-analysis of the deposited data

How the results depend on the processing

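Of the 47 genes 9 were lower and 6 higher as reported. The number lower was 8 to 11 when 1 library was left out and the number higher 1 to 3 (subunits 6 to 9 and 1 to 2, assembly factors 2 to 3 and 0 to 1). Without the low-count filter 13 genes were lower, beside 10.8% of all genes in that fit. Ndufs4, Ndufs7, Ndufb9 and Acad9 were called lower there (edgeR adjusted p = 0.0462, 0.0138, 0.0111 and 0.0178). Higher genes numbered 10 with library size alone (9 subunits), where 16.8% of all tested genes were called higher. With upper-quartile factors 8 subunits were higher, where 14.3% of all tested genes were. Without the low-count filter 2 genes were higher (2 subunits, 0 assembly factors), beside 7.11% of all genes in that fit. With the replicate number as a block 1 gene was higher (1 subunit, 0 assembly factors), beside 8.45% of all tested genes. The median log2 fold change of the 47 genes was -0.07 as reported, 0.02933 with library size alone, 0.0264 without tatcre 2 and -0.11 to 0.03 with 1 library left out. Over all genes, 2614 were higher with library size alone, and 998 to 1681 higher and 1960 to 2391 lower with 1 library left out (998 without mock 2 and 1002 without tatcre 1). Falls were 60.2% of all calls as reported, 48.5% with upper-quartile factors and 42.0% with library size alone. In the 100 bases around the start, the percentage of promoters with the YY1 word went from 31.0 to 19.0 for complex I genes. For all tested genes with a promoter it went from 10.2 to 6.17. Libraries with the same number did not clearly deviate together (correlations 0.06, -0.03 and 0.23), and under the block 9 of the 15 genes were called, Ndufv3, Ndufs1, Ndufa10, Ndufaf1, Ndufc2 and Ndufab1 being lost. Isca2, Gabpb1, Mrpl47 and Vmac also lost their calls under the block (edgeR adjusted p = 0.0631, 0.0851, 0.0617 and 0.0723). The cause of these differences was not tested. With 18 to 43 counts a library, Ndufb4 had an SE of 0.42.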

Other observations

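Factors known to control nuclear respiratory genes were not uniform. Of 9 such genes, Yy1 included, 3 fell, none rose and 6 were not called. The falls were those of Ppargc1b, Gabpb1 and Yy1 itself, the gene targeted in this design, whose fall is no finding about the list. With Yy1 counted, falls were 33.3% of the list, a share raised by the design and not comparable with the 16.3% of all tested genes. Ppargc1b, a coactivator of respiratory genes, had 4.23, 5.48 and 5.20 CPM in mock and 1.07, 1.04 and 1.28 CPM in tatcre libraries, a 4.38-fold fall (log2 fold change -2.13, SE 0.25, edgeR adjusted p = 0.000132). Its relative Ppargc1a was low, with 17 to 42 counts a library, at 1.29 ± 0.419 and 0.888 ± 0.213 CPM (SD, n = 3; not called). Gabpb1, a subunit of the ETS factor GABP, had a log2 fold change of -0.25 (edgeR adjusted p = 0.0442), a call lost without mock 2, mock 3, tatcre 1 or tatcre 3 (edgeR adjusted p from 0.104 to 0.148) and with RLE, upper-quartile or no scaling factors, the stricter filter (0.0548) or the replicate block (0.0851). Its partner Gabpa stood at 336 ± 20.7 and 340 ± 16.8 CPM. Nrf1 had a log2 fold change of -0.27 (edgeR adjusted p = 0.0513). Of 4 genes that supply the flavin cofactor of complex I, Rfk, Flad1, Slc25a32 and Slc52a2, none was called by edgeR.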
